A study of Rattus norvegicus with 2 samples.

Results

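Translation factors and tRNA synthetases are the proteins that load, start and extend the polypeptide chain on the ribosome. They were followed here in rat liver RNA from 1 high-fat array and 1 low-fat array. Members were chosen by gene name alone, as every probe set whose single gene symbol begins with Eif1 to Eif6, Eef1 or Eef2, names a synthetase ending in ars1 or ars2, or is Eprs1, Farsa or Farsb. This gave 80 genes of 10411 with a single symbol, on 94 probe sets. The genes were 46 initiation factors and their regulators, 10 elongation factors and their modifiers, and 24 synthetases. Both RNAs came from SD rats labelled as 4 weeks old with 9 weeks of feeding, on a high-fat or a low-fat version of AIN93G, a purified food for rodents. How much fat each food held, the sex of the rats and whether RNA was pooled are not stated. Since each diet had 1 array, no replicate check and no test were possible, and each difference describes these 2 arrays only.

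In eukaryotes, eIF2 brings the initiator tRNA to the small ribosomal subunit, eIF3 scaffolds the assembly, and the eIF4 factors bind the mRNA cap and unwind the leader. The 4E-BPs, encoded by the Eif4ebp genes, sequester the cap-binding protein eIF4E until the kinase mTORC1 phosphorylates them. Kinases that phosphorylate eIF2 slow initiation under stress and favour translation of Atf4, whose protein induces many synthetase genes. In the liver, which secretes most plasma proteins, translation takes a large part of the cell's energy and responds to feeding.

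On these arrays the translation machinery differed little between the diets, with 1 exception in each direction. Eif4ebp3, a repressor of cap-dependent initiation, had a signal 2.43-fold lower with the high-fat diet. Eef1a1, which delivers aminoacyl-tRNA to the ribosome, was 1.55-fold higher on its brighter probe set, and under 1.5-fold with each of 4 other scalings. The other 71 measured members lay within 1.5-fold. Ratios are log2 of the high-fat over the low-fat signal, less the median over measured probe sets, and positive values mean higher on the high-fat array. A probe set was measured when its mean log2 signal reached the mean of the array floors, which were the median signals of 14 on the high-fat and 15.7 on the low-fat array. Where a gene had several measured probe sets, the brightest gave its ratio.

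The RefSeq sequences upstream of the start sites of these genes are shown first, because Eif4ebp3 and Eef1a1 were the only members past 1.5-fold. Each is the 250 bases before the annotated start in build GRCr8, with matches to the searched motifs in capitals. The motifs, searched on both strands, were TGATGNAA (the core of the amino acid response element bound by ATF4), CACGTG (the E-box) and TATANAA (the TATA box). TATANAA was chosen after the Eef1a1 sequence had been seen. The Eif4ebp3 stretch lies at chr18:28540074-28540323 on the plus strand, has 49.6% G and C and held none of the 3 motifs. The Eef1a1 stretch lies at chr8:88225070-88225319 on the minus strand, has 65.6% G and C and held 1 match to TATANAA, which begins 31 bases before the start.
Eif4ebp3: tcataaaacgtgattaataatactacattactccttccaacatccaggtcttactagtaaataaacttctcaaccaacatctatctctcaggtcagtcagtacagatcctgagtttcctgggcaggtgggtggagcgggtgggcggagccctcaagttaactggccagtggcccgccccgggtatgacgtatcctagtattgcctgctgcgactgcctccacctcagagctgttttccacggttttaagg
Eef1a1: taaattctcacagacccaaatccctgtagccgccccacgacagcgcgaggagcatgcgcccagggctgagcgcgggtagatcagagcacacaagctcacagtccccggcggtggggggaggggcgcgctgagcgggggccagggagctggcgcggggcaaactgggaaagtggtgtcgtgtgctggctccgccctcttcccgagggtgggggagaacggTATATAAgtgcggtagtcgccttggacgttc

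Promoter sequences were found for 73 of the 80 member genes. The E-box was in 14 of the 73 (19.2%), against 5.59% of 33469 promoters in the table, and TATANAA was in 7 (9.59%), against 11.6%. The upstream stretches of members had a median of 58.4% G and C, against 51.2% for the whole table. Unlike the members, the whole table was not cut to a single promoter per gene, and no set matched for G and C was compared. The amino acid response element core was in 6 of 73 (8.22%), against 3.40% of the whole table, and 5 of the 6 were synthetases. The 30 bases around 5 of the matches, each reading TGATGCAA or its reverse complement, are printed with the match in capitals, read along the gene's own strand, because the synthetase ratios are set beside them further on.
Iars1: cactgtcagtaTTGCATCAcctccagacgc
Mars1: aggcccgttccggTTGCATCAgcgtgggct
Nars1: gctgccctaggtgatcTGATGCAAcgcttc
Tars1: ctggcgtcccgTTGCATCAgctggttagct
Eif2s2: ttccctttcgcTGATGCAAgagcctagcgc
These windows lie, in the same order, at chr17:15193658-15193687 (minus strand), chr7:65023754-65023783 (minus), chr18:60275783-60275812 (minus), chr2:62114811-62114840 (minus) and chr3:163855588-163855617 (minus) of GRCr8.

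Of 80 member genes, 73 were measured, on 81 of the 94 probe sets. The 7 that were not were Eef1a2, the muscle and brain form of the elongation factor, the methyltransferase gene Eef1akmt4, Eif2ak4, Eif4e3, Vars1, Hars2 and Vars2. Of these, Eef1a2 had signals of 4.9 on the high-fat and 5.7 on the low-fat array, Eif2ak4 9 and 11.8, Eif4e3 5.1 and 6.7, and Vars1 10.5 and 13.7, all below both floors. Eef1akmt4 was just outside, at 12.4 on the high-fat array and 17.5 on the low-fat array.

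**Figure D1:**
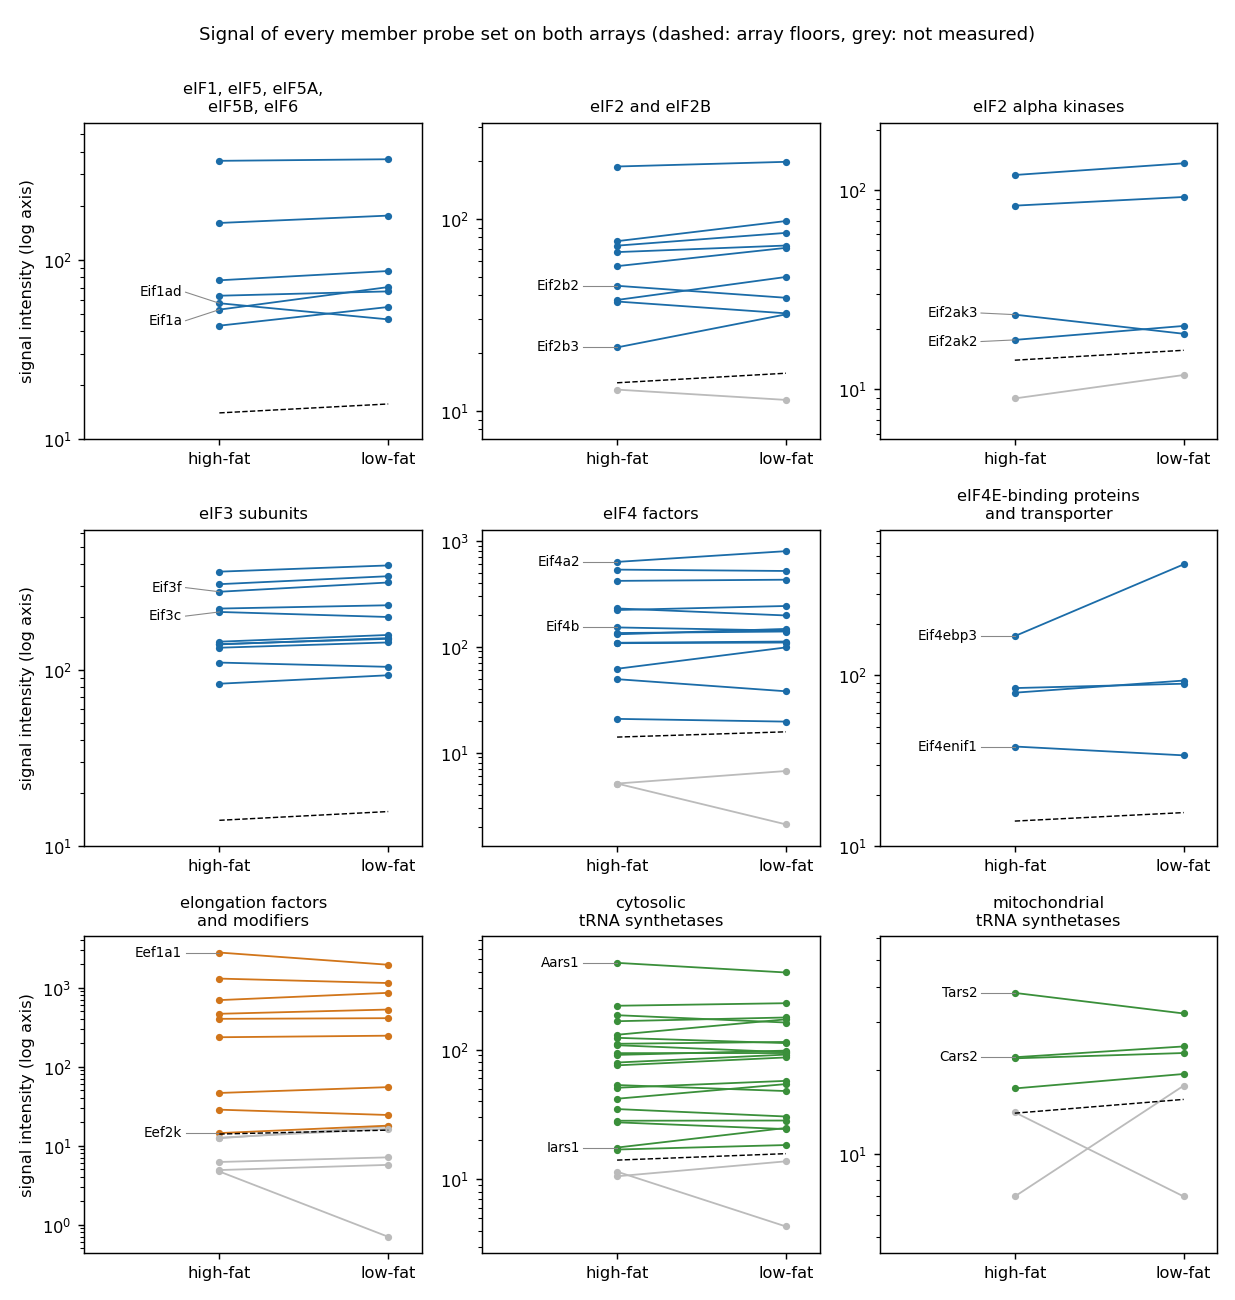
Signal intensity of all 94 member probe sets on the high-fat (left) and low-fat (right) array, on log axes, 1 panel per class, with a line joining the values of a probe set. Grey lines are probe sets that were not measured, dashed lines are the array floors, and the genes with the highest and lowest ratio in each class are named. Among measured members the lowest ratio was that of Eif4ebp3, with 170.0 on the high-fat and 447.8 on the low-fat array.

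At 2-fold, 1 of the 73 measured members was lower on the high-fat array, against 0.865% of 6012 measured genes, and 0 were higher, against 0.848%. At 1.5-fold, 1 member was lower, against 5.44% of all measured genes, and 1 was higher, against 4.22%. Of the 73 members, 63 (86.3%) lay within 1.25-fold, against 71.9% of all measured genes. The members had a higher median signal, 107.8 on the high-fat and 98.1 on the low-fat array against 51.8 and 56.6 for all measured genes, and ratios of bright probe sets spread less. Against the robust SD of the ratio among probe sets of similar signal, 57 of the 73 members (78.1%) lay within 1 SD, compared with 67.8% of all measured genes. Past 2 robust SD were 3 members, Eif4ebp3, Eef1a1 and the alanyl-tRNA synthetase gene Aars1 (4.11%, against 7.83% of all genes). The median ratio was 0.02 over the 73 members and 0.00 over all measured genes. With centring, 41 members were higher and 32 lower, beside 3004 and 3008 of all measured genes. Without centring 19 were higher and 54 lower, when 66.6% of all measured genes were lower. The ratios of 23 members changed sign between the 5 scalings run.

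**Figure D2:**
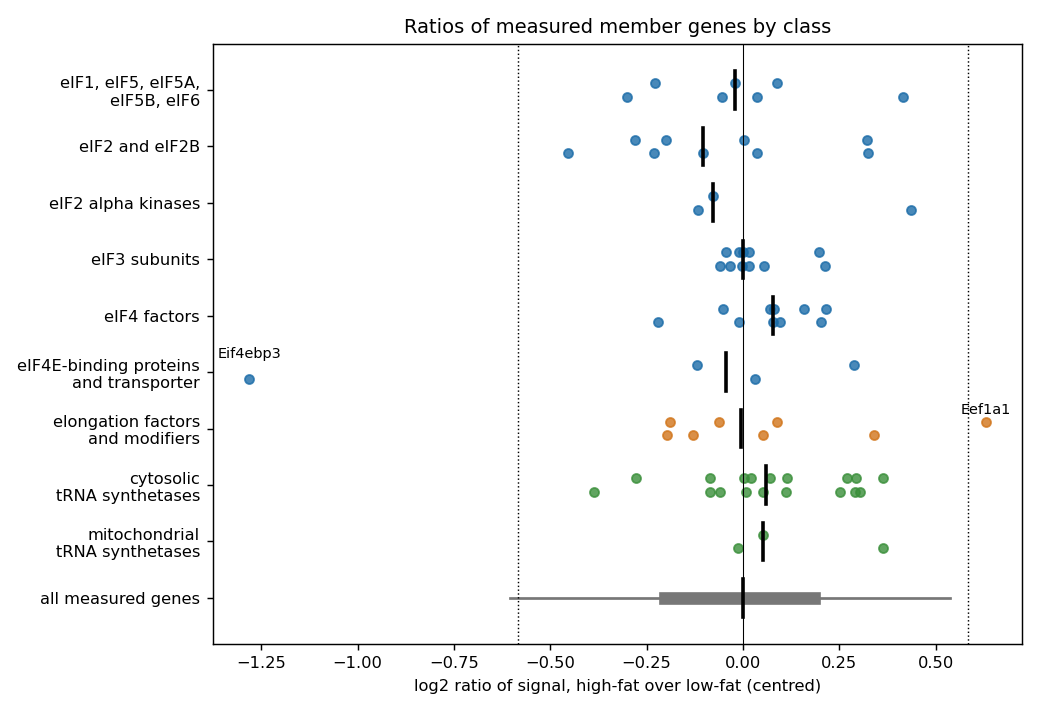
Centred log2 ratio (high-fat over low-fat) for the 73 measured member genes by class, with 1 point per gene, black bars at class medians and dotted lines at 1.5-fold. The bottom row gives all 6012 measured genes, with a thick line from the 25th to the 75th percentile and a thin line from the 5th to the 95th. Eif4ebp3 at -1.28 and Eef1a1 at 0.63 are the only points past the dotted lines.

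**Figure D3:**
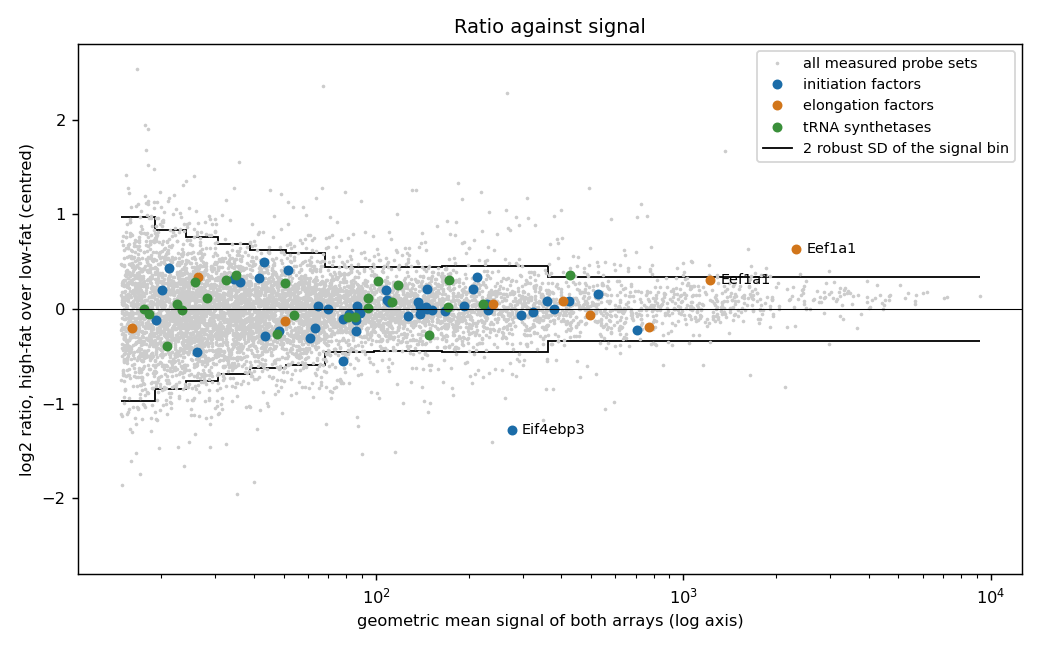
Centred log2 ratio against the geometric mean signal of both arrays (log axis) for all measured probe sets (grey) and for members by family (colours), with steps at 2 robust SD in each of 10 signal bins. Eif4ebp3 at -1.28 and the brighter Eef1a1 probe set at 0.63 lie far outside the steps, and most members lie inside.

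The eIF4E-binding proteins held the largest difference. Eif4ebp3 had a signal of 170.0 on the high-fat array, against 447.8 on the low-fat array, a log2 ratio of -1.28 that ranked as the 13th lowest of 6012 measured genes. The robust SD of probe sets of similar signal was 0.23, and the ratio lay between -1.40 and -1.12 under all alternatives run. The gene had 1 probe set, so no second one could be compared. Its relatives differed by much less. Eif4ebp1, the best studied mTORC1 target of the family, had 79.2 on the high-fat and 93.3 on the low-fat array (-0.12), and Eif4ebp2 had 84.3 and 89.4 (0.03, with a sign that changed between scalings). Eif4enif1, which carries eIF4E into the nucleus, had 38.3 and 34 (0.29). Eif4ebp3 was the only 1 of the 4 genes of this class past 1.5-fold. The cap-binding protein gene Eif4e itself had 134.4 and 138.9 (0.07, with a sign that changed between scalings).

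In cultured cells, Eif4ebp3 is known as a gene that the transcription factor TFE3 induces when mTORC1 is inhibited for long. Tfe3 and its relative Tfeb were looked up for that reason and lie outside the rule for naming genes. On measured probe sets, both were lower on the high-fat array. The measured probe set of Tfe3 had 26.5 on the high-fat and 43.2 on the low-fat array (-0.59). Its second, below both floors, had 5.9 and 4.5 (0.51), on the other side of 0. Tfeb had 15.9 and 26.4 (-0.61). Both Tfe3 and Tfeb had dim signals, where the robust SD was 0.34 to 0.42. In the rat gene order Eif4ebp3 follows Ankhd1, to which it is joined in a read-through transcript in humans. Ankhd1 had 15.4 on the high-fat and 28 on the low-fat array (-0.75), while Sra1, the gene on the other side, had 283.2 and 320.5 (-0.06). Apbb3, the gene after Sra1, had 43.8 and 55.6 (-0.23). The Ankhd1 signal was dim as well, where the robust SD was 0.42. Ankhd1, Sra1 and Apbb3 were also looked up outside the naming rule. Whether TFE3 had a part in the Eif4ebp3 ratio was not tested, and transcript signals do not measure the activity of the protein. Whether the Eif4ebp3 probe set reads a joint transcript was not tested either.

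Among the 11 genes of the mRNA-binding eIF4 factors, 10 were measured and all 10 lay within 1.25-fold on the brightest probe set. Their median was 0.08, or -0.04 if not centred. Second measured probe sets of Eif4b (-0.55), Eif4g1 (0.50) and Eif4g2 (0.34) lay outside 1.25-fold. The helicase genes Eif4a1 and Eif4a2 lay on opposite sides of 0. Eif4a1 had 533.2 on the high-fat and 517.7 on the low-fat array (0.16), and Eif4a2 had 630.6 and 796.4 (-0.22). The scaffold gene Eif4g1 had 130.7 and 147 (-0.05). Eif4g2, a scaffold relative that works without eIF4E, had 417.5 and 428.3 (0.08), and Eif4h, a helper of the helicase, 221.6 and 241.9 (-0.01). Eif4g3, another scaffold gene, was dim at 20.8 and 19.6 (0.20). The signs of Eif4g2, Eif4a3 (0.10) and Eif4e2 (0.08) changed between scalings.

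The 11 measured subunits of eIF3 had the smallest spread of the 9 classes. Their ratios ran from -0.06 for Eif3f to 0.21 for Eif3c around a median of -0.00, with a robust SD of 0.05 across subunits, against 0.29 across all measured genes. Eif3h had 363 on the high-fat and 393.8 on the low-fat array (-0.00), Eif3l 308.1 and 342 (-0.03), and Eif3f 279 and 315 (-0.06). Eif3c, with 214.2 and 200.5, and Eif3k, with 110.4 and 104.4 (0.20), stood slightly apart from the other 9, which lay between -0.06 and 0.05. The signs of Eif3a, Eif3j and Eif3m changed between scalings. All 11 ratios were smaller than the robust SD of probe sets of similar signal, 0.17 to 0.23. A probe set that carries both Eif3e and Eif3el1 in the annotation, and so is no member, had 339.3 and 314.4 (0.23).

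The guanine nucleotide exchange factor eIF2B recharges eIF2 and is the step that stress kinases block. Of its 5 subunit genes, 4 had lower values with the high-fat diet under all 5 scalings. Eif2b3 had 21.4 on the high-fat and 31.8 on the low-fat array (-0.45), Eif2b5 37.8 and 49.8 (-0.28), Eif2b4 76.5 and 97.4 (-0.23), and Eif2b1 56.7 and 70.6 (-0.20). Eif2b2, with 44.8 and 38.8 (0.32), lay on the other side. A second Eif2b5 probe set, at 12.9 and 11.4, was below both floors. Each of the 5 ratios was smaller than 1.5-fold and within 1.2 robust SD of probe sets of similar signal. The subunits of eIF2 itself were close to 0 for Eif2s1, at 67.1 and 72.6 (0.00), and Eif2s2, at 187.3 and 198.1 (0.04), and above it for Eif2s3, at 37.1 and 32.2 (0.32). The signs of Eif2s1 and Eif2s2 changed between scalings. Eif2d, which can deliver initiator tRNA without eIF2, had 72.5 and 84.5 (-0.10). Over the 9 genes the median was -0.10.

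Of the 4 genes for kinases that phosphorylate the alpha subunit of eIF2, 3 were measured. Eif2ak3, encoding PERK, the kinase of endoplasmic reticulum stress, had 23.7 on the high-fat and 19 on the low-fat array (0.44). Eif2ak1, the haem-regulated kinase, had 119 and 136.2 (-0.08, and -0.03 on a second probe set). Eif2ak2, the kinase activated by double-stranded RNA, had 17.7 and 20.8 (-0.12). The Eif2ak3 ratio was 1.04 times the robust SD of similarly dim probe sets.

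Among the remaining initiation factors, Eif1ad had the highest ratio, with 57.2 on the high-fat and 46.5 on the low-fat array (0.42), and Eif1a the lowest, with 52.7 and 70.4 (-0.30). Eif5a, the hypusine-carrying factor that helps the ribosome through difficult peptide bonds, had 355.9 and 363.2 (0.09, with a sign that changed between scalings). Eif6, which keeps ribosomal subunits apart, had 160.3 and 176.2 (-0.02). Eif1b had 76.8 and 86.5 (-0.05), and Eif5b, which joins the subunits, 42.9 and 54.5 (-0.23). The class of 7 had a median of -0.02. Eif5 itself shares its 3 probe sets with a pseudogene in the annotation, and these had ratios of 0.07 to 0.13.

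The 2 brightest members, Eef1a1 and Eef2, were elongation factor genes. Eef1a1 had 2783.8 on the high-fat and 1950.4 on the low-fat array on its brighter probe set (0.63), and 1302.6 and 1144.4 on the other (0.30). Both probe sets were higher on the high-fat array, and the second, at 0.30, lay below 1.5-fold. The brighter one fell below 1.5-fold under the other 4 scalings, at 0.51 to 0.57. Eef1a1 has many near-identical processed copies in mammalian genomes, so it is uncertain that these probe sets read 1 locus. Eef2, which moves the ribosome along the mRNA, had 695.7 on the high-fat and 860.2 on the low-fat array (-0.19). The exchange complex that recharges eEF1A was near 0, with Eef1b2 at 402.9 and 410.6 (0.09), Eef1d at 235.6 and 246.5 (0.05) and Eef1g at 466.8 and 528.4 (-0.06). The signs of Eef1b2 and Eef1d changed between scalings. Eef2k, the kinase that inhibits eEF2, had 14.4 and 17.9 on its only measured probe set of 4 (-0.20). The methyltransferase gene Eef1akmt1 had 28.5 and 24.4 (0.34). Eef1e1, a scaffold of the multisynthetase complex, had 46.4 and 55 (-0.13). The 8 measured genes had a median of -0.01, with 4 on each side of 0.

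Of the 19 cytosolic synthetase genes 18 were measured. With centring, 13 were higher and 5 lower on the high-fat array, beside 3004 and 3008 of all measured genes. Their median was 0.06, or -0.06 if not centred. None passed 1.5-fold. The highest was Aars1, for alanine, with 467.2 on the high-fat and 393.7 on the low-fat array (0.36), a ratio 2.13 times the robust SD of probe sets of similar signal. Tars1, for threonine, had 184.2 and 161.7 (0.30), Sars1, for serine, 108 and 95.5 (0.29), Hars1, for histidine, 27.4 and 24.3 (0.29), Farsb, the beta subunit for phenylalanine, 53.2 and 47.8 (0.27), and Gars1, for glycine, 123.2 and 112.1 (0.25). These 6 were higher under all 5 scalings, and were the only ones of the 18 that were higher without centring. They were named for their high ratios, so their signs under the scalings are no separate support. Apart from Aars1, they lay at 0.76 (Hars1) to 1.34 (Tars1) times the robust SD of probe sets of similar signal. On the other side, Iars1, for isoleucine, had 17.5 and 24.8 (-0.39), and Qars1, for glutamine, 130.1 and 171.1 (-0.28). Eprs1, which charges both glutamate and proline, had 217.9 and 228 (0.05), and Kars1, which serves cytosol and mitochondria, 165.5 and 176.9 (0.02), and both signs changed between scalings.

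Of the 5 synthetases with the response element core, the ratios of the 4 whose windows are printed are given here. Tars1 was at 0.30, Nars1, for asparagine, had 110.8 on the high-fat and 114.5 on the low-fat array (0.07), Mars1, for methionine, 90.9 and 98.1 (0.01), and Iars1 was at -0.39. The signs of the Nars1 and Mars1 ratios changed between scalings.

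Mitochondrial synthetases were dim. Of 5 genes 3 were measured, Tars2 with 38.1 on the high-fat and 32.1 on the low-fat array (0.36, and -0.06 on a second probe set), Fars2 with 22.1 and 23.1 (0.05), and Cars2 with 22.3 and 24.4 (-0.01). The signs of Fars2 and Cars2 changed between scalings. Vars2, with 7 on the high-fat and 17.6 on the low-fat array, lay under the floor of the high-fat array, which makes it at least 1.16-fold lower. Hars2 was on the other side, with 14.1 on the high-fat and 7 on the low-fat array, below the low-fat floor. Hars2 and Hars1 are adjacent and divergent in the rat genome, the 250 bases before their starts sharing 143, and Hars1 was at 0.29. A probe set that lists the symbol Mars2 under different identifiers, and so is no member by the rule, had 15.7 and 26.5 (-0.64).

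Second probe sets show how far these small ratios can be read. Of the 7 member genes with several measured probe sets, the brightest 2 lay on the same side of 0 in 4, and the SD of their difference was 0.44. Over 696 such genes on the arrays the share was 56.9% and the SD 0.42. Eif4b, a cofactor of the helicase, lay on both sides, with 151.8 on the high-fat and 141.7 on the low-fat array on 1 probe set (0.22), and 61.8 and 98.3 on the other (-0.55). Eif4g1 was at -0.05 and, on a dimmer probe set, at 0.50. Cars1, for cysteine, was at -0.06, -0.26 and 0.31. Eif4g2 was at 0.08 and 0.34.

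**Figure D4:**
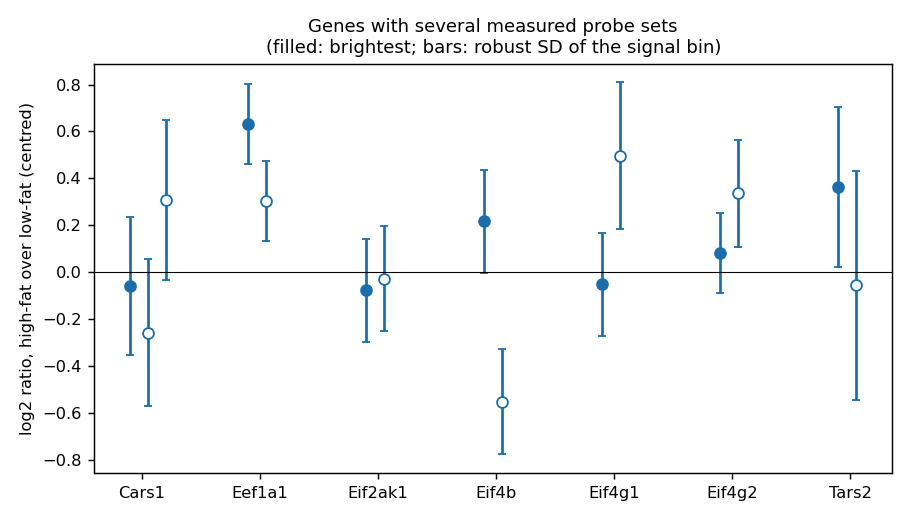
Centred log2 ratio (high-fat over low-fat) on each measured probe set of the 7 member genes with more than 1, brightest first (filled), with bars of 1 robust SD of probe sets of similar signal. Both Eef1a1 probe sets lie above 0, while Eif4b, Eif4g1, Cars1 and Tars2 have probe sets on both sides.

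The wider pathway was set beside the members, with counts of higher and lower genes relative to the centring, which moved every ratio by 0.12. Among mTORC1 pathway genes, 18 of 19 were measured, 8 higher and 10 lower, with a median of -0.02. Past 1.5-fold were Tsc2, an inhibitor of the pathway, with 21.9 on the high-fat and 45.6 on the low-fat array (-0.94), and Mknk1, a kinase of eIF4E, with 27.8 and 19.9 (0.60). Its relative Mknk2 had 77 and 124.8 (-0.58). Of the 18, 1 was at least 1.5-fold higher and 1 lower, against 4.22% and 5.44% of all measured genes. Tsc2 and Mknk1 were dim, where the robust SD was 0.34 and 0.42. Among targets and mediators of the integrated stress response, 15 of 23 were measured, 9 higher and 6 lower, with a median of 0.19. Past 1.5-fold were Cth, which makes cysteine, with 419.1 and 234.1 (0.96), the transcription factor gene Atf5, with 483 and 313.4 (0.74), and Psph, of serine synthesis, which lay under the floor of the low-fat array and was at least 1.53-fold higher. The lowest was Nupr1 (-0.57). Of the 15, 3 were at least 1.5-fold higher and 0 lower, against 4.22% and 5.44% of all measured genes. The 8 not measured were Atf3, Asns, Psat1, Phgdh, Mthfd2, Slc7a5, Slc7a1 and Ddit4. Atf4 itself had 299.9 on the high-fat and 320.6 on the low-fat array (0.02, smaller than the shift made by centring), and Ddit3 36.6 and 34.8 (0.19).

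Cytosolic ribosomal protein genes, 42 of 44 measured, had a median of -0.03, with 17 higher and 25 lower. Past 1.5-fold were Rpl37a, with 2339.7 on the high-fat and 797 on the low-fat array (1.67), and Rpl39, with 16.8 and 27.9 (-0.62). Rpl39 lay near the floors, where the robust SD was 0.42. Mitochondrial ribosomal protein genes, 71 measured, had a median of 0.03, from Mrpl38 (-0.88) to Mrps15 (0.55). The 17 measured ribosome biogenesis genes had a median of -0.03, from Wdr12 (-0.65) to Nhp2 (0.75). Mitochondrial translation factors, 5 measured, ran from 0.00 for Mtfmt to 0.44 for the recycling factor gene Mrrf. Termination and recycling factors ran from -0.49 for Abce1 to 0.55 for Denr. Poly(A)-binding protein genes and partners ran from -0.23 for Paip1 to 0.14 for Paip2. Among special elongation genes, the ribosome rescue gene Pelo had 30.7 on the high-fat and 52.3 on the low-fat array (-0.65), and the highest was Gspt1 (0.24). Dhps, whose enzyme starts the hypusine modification of Eif5a, had 27.6 and 42.8 (-0.52). Among scaffolds and synthetase-like genes, Tars3 lay under the floor of the high-fat array and was at least 1.35-fold lower, and Pstk was highest at 0.36. Other mRNAs with a terminal oligopyrimidine start, the feature that places Eef1a1 and Eef2 under mTORC1 control, ran from -0.59 for Vim to 0.51 for Hnrnpa1. Vim is also among the stellate cell and fibroblast markers, and a second measured probe set of Hnrnpa1 was at -0.21.

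**Figure D5:**
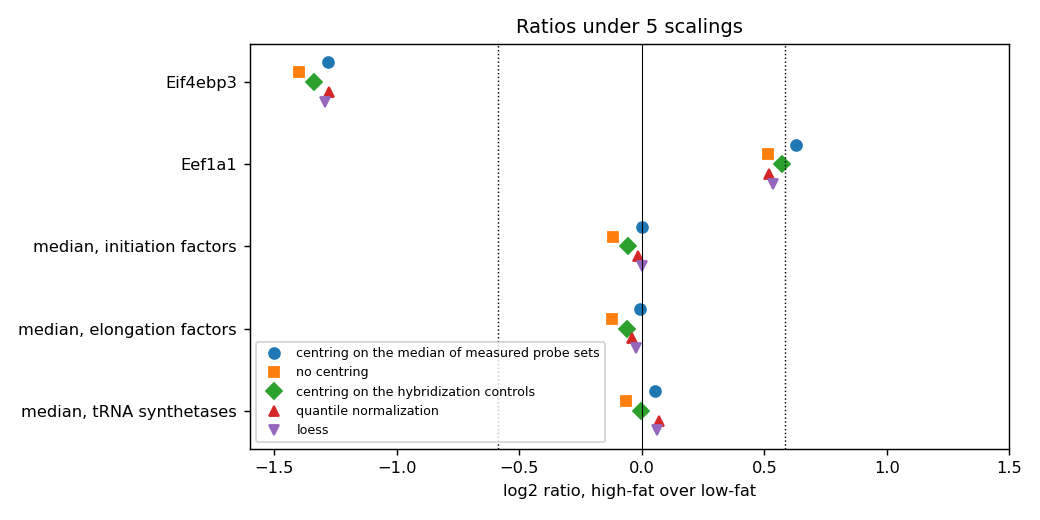
Log2 ratio (high-fat over low-fat) of Eif4ebp3 and Eef1a1, and the median ratio of each family, under 5 scalings (symbols), with dotted lines at 1.5-fold. Eif4ebp3 lies between -1.40 and -1.28 in all 5, Eef1a1 passes the dotted line in 1, and the family medians lie between -0.12 and 0.07.

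The liver label was checked against cell type markers. All 12 hepatocyte markers were measured, with a summed signal of 43978.6 on the high-fat and 43085.3 on the low-fat array and ratios of 0.03 to 0.27. All sums here are of signals before centring, while the ratios are centred. Summed signals were 1266.8 and 1449.1 for 9 macrophage and Kupffer cell markers, all measured, and 338.5 and 375.6 for 6 endothelial markers, 4 measured. They were 383.6 and 500.8 for 11 stellate cell and fibroblast markers, 5 measured. The median centred ratio was 0.01 for macrophage and Kupffer cell markers, 5 higher and 4 lower. It was 0.01 for endothelial and -0.28 for stellate cell and fibroblast markers. For cholangiocyte markers, 2 of 5 measured, the sums were 64.5 and 74.4. No lymphocyte or neutrophil marker was measured, and their sums were 33.3 and 34.5 over 6 genes and 17.7 and 18.4 over 3. Red cell markers, 2 of 2 measured, had sums of 1391.9 on the high-fat and 1426.3 on the low-fat array, adipocyte markers, 1 of 4 measured, 68.4 and 74.3, and pancreas markers, 1 of 5 measured, 73.1 and 98.4. The ratio of 3′ to 5′ signal was 2.85 on the high-fat and 2.69 on the low-fat array for beta-actin, and 1.67 and 1.58 for Gapdh. The part of cell composition and RNA quality in the ratios above was not tested, and in whole tissue, fewer cells of a type and less RNA per cell cannot be told apart.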

How the data were processed

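Liver total RNA was hybridised to 2 arrays with Affymetrix probe set names, 1 per diet, taken from the sample titles. The deposited values are signal intensities on a linear scale, as read from the values, while how the authors corrected background, summarised probes and scaled arrays is not stated. The table holds 57 control and 15866 other probe sets. Among the others, GEO's platform annotation gives 1 symbol to 12783, several symbols to 312, and none to 2771. All 94 member probe sets matched an Entrez identifier in the GRCr8 gene table, with no symbol changed. Signals were put on the log2 scale without a pseudocount after 4 probe sets with a 0 were removed. Centring subtracted the median of 7864 measured probe sets, -0.12, where 18 hybridization controls had -0.06. Robust SDs come from 10 equal bins of mean signal. Fold thresholds were 2 and 1.5. Where 1 signal lay under its floor, the fold was taken against that floor as a bound. The number of arrays limits the precision of every value. The members, gene lists and motifs were chosen with earlier results of these data known. Named genes were every member past 1.5-fold, and in each class the brightest 3 and the highest and lowest ratio. They also include members with several measured probe sets and, in each pathway list, the extremes and genes past 1.5-fold. Other genes named were chosen after their values were seen (further members, Tfe3, Tfeb, Ankhd1, Sra1, Apbb3, Atf4, Ddit3, Mknk2 and Dhps). The alternatives were 10 set beforehand and 1, on Mars2, added after seeing the data. The steps were tested on simulated data. Calculations ran in Python 3.11.15 with pandas 2.3.3 and numpy 2.4.6, loess in statsmodels 0.14.6 and figures in matplotlib 3.10.9. 1 sequence window is not reported here.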

Additional observations from a re-analysis of the deposited data

How the results depend on the processing

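No paired analysis was possible because the result comes from no test, with 1 array per diet. Eif4ebp3 was past 2-fold lower under every alternative run (-1.40 to -1.12). The count of members at least 1.5-fold higher, 1 as reported, was 0 without centring, with control centring, quantile normalization, loess, a pseudocount of 50 or the median over probe sets, since Eef1a1 then lay at 0.47 to 0.57. It was 2 with the floor at the 25th percentile or no floor, and in these settings 2 members were at least 1.5-fold lower, 2 at least 2-fold lower and 1 at least 2-fold higher, as Hars2 and Vars2 then counted. With Mars2 counted as a member, 2 were at least 1.5-fold lower. Without centring the median was -0.0998 over all members, -0.116 for initiation factors, -0.0638 for synthetases and -0.117 for eIF3. With control centring it was -0.0392 over all members, -0.0550 for initiation factors and -0.0569 for eIF3. The number of all genes at least 1.5-fold higher and lower was 159 and 512 without centring, 204 and 399 with control centring, and 254 and 327 as reported. Of 783 single-member values under the 11 alternatives, 2 moved by more than the robust SD, Eif4b and Eif4g1 with the median over probe sets (-0.17 and 0.22), and both changed sign there. Probe sets near the floor, among them most mitochondrial synthetases, cannot show small differences.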
